A study of Homo sapiens with 6 samples.

Results

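The genes described here are 41 synaptic vesicle and release genes, taken as a list by symbol from the 27961 genes of the deposited count table. The list is built on what the proteins do, with the UNC13 family left out, but it was chosen with earlier results of these data known. Its shares beside all features are therefore a description and no independent test. Of the genes, 37 had enough reads for a test. RNA was sequenced from SH-SY5Y cells, a human neuroblastoma line with sympathetic neuroblast features. The cells carried a lentiviral short hairpin RNA against TARDBP, which encodes the RNA-binding protein TDP-43, or 1 of 2 control hairpins, with 2 libraries for each hairpin. The TARDBP hairpin was TRCN0000016038, control hairpin 1 was SHC007 and control hairpin 2 was SHC016. All 3 groups were infected in the presence of 8 µg/mL polybrene and, from 48 h, selected in 2 µg/mL puromycin for 3 days, so the controls carry the vector and the drug too. The knockdown rests on 1 hairpin in 1 cell line. The labels do not say whether the paired libraries came from separate cultures, so the p-values reflect only how far these libraries scatter, and that scatter may be technical.

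A synaptic vesicle carries transmitter in a membrane studded with proteins such as synaptophysin, synaptogyrins and SV2. It is held in a pool by synapsins, brought to the release site by RAB3 GTPases and their effectors, and docked at an active zone built from bassoon, piccolo, RIM and ELKS proteins. Fusion is driven by SNARE proteins (syntaxin, SNAP-25 and synaptobrevin), restrained by complexins and triggered by calcium bound to synaptotagmins. NSF and its cofactors then take the SNARE complex apart, and dynamin and clathrin adaptors retrieve the membrane. Cells of neuroendocrine origin use many of the same proteins to release dense-core granules.

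The libraries held 18605745 to 21698339 counts, of which 20.6% to 25.7% fell on repeat families. TARDBP itself stood at 18.9 and 24.0 CPM (counts scaled to the effective size of each library) with its hairpin. Under control hairpin 1 it stood at 80.9 and 72.4 CPM, and under control hairpin 2 at 92.7 and 81.5 CPM. The level was 26.2% of that in the controls (log2 fold change -1.93, SE 0.126, adjusted p = 1.68e-05). Neuroblast markers were present in all libraries, with summed levels of 1009 to 1143 CPM in the knockdown, 1866 to 2127 under control hairpin 1 and 1463 to 1643 under control hairpin 2. Of 9 tested neuroblast markers 7 were lower and 1 was higher against the mean of both controls, where 24.3% of all features were lower and 23.9% higher. Against control hairpin 1 alone 7 were lower and 0 higher (beside 21.8% and 21.1%), and against control hairpin 2 alone 5 and 1 (beside 26.2% and 24.0%). In control hairpin 2, 4 were lower and 2 higher than in control hairpin 1 (beside 20.4% and 22.8%). TH was listed at 0 counts in both knockdown libraries. Mesenchymal markers summed to 888 to 900, 2072 to 2127 and 4359 to 4683 CPM with the TARDBP hairpin and control hairpins 1 and 2. Of 9 tested, 6 were lower and 2 higher against the mean of both controls, beside 24.3% and 23.9% of all features. Between the controls, 8 of 9 were higher in control hairpin 2 than in control hairpin 1, as were 22.8% of all features. PRRX1 was at 0 in every library. Glial markers summed to at most 3.27 CPM in any library, with FOXD3 at 0 in all. The 41 release genes summed to 1357 to 1363 CPM in the knockdown, 1953 to 2000 under control hairpin 1 and 1746 to 1828 under control hairpin 2. The neuroblast sums were ordered the same way, and the part of either marker list in the results below was not tested.

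Release genes were mostly lower with the TARDBP hairpin than the mean of both controls, and none was higher than both controls. Only 11 of 37 were called lower than each control (29.7%, beside 14.0% of all features). Of the genes lower than the mean, PCLO, RIMS3, RAB3D, NAPB and ERC2 had log2 fold changes above 0 against control hairpin 2. These were 0.43, 0.11, 0.08, 0.02 and 0.01, and the rest lay below 0. Against the mean of both control hairpins, 21 of 37 were lower (56.8%) and 0 were higher by edgeR's quasi-likelihood test at an adjusted p below 0.05. Among all 17163 features tested, 24.3% were lower and 23.9% higher (48.2% in all). At an unadjusted p below 0.05 the count of higher genes was also 0, as it was with DESeq2. The median log2 fold change over the 37 genes was -0.42, beside 0.04 over all features tested. In bulk RNA, fewer cells of a type and less RNA per cell cannot be told apart.

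Each control hairpin gave its own answer for many of these genes. Against control hairpin 1 alone, 21 were lower and 1 was higher, with a median of -0.69 beside 0.03 over all features, of which 21.8% were lower and 21.1% higher (42.9% in all). Against control hairpin 2 alone, 16 were lower and 1 was higher, with a median of -0.25 beside 0.02 and a background of 26.2% lower and 24.0% higher (50.2% in all). The 2 comparisons share the knockdown libraries. Between the control hairpins themselves, 19 genes were lower and 5 higher in control hairpin 2 than in control hairpin 1, where the background was 20.4% lower and 22.8% higher (43.2% in all). When the 4 control libraries were fitted as 1 group, the count of lower genes dropped from 21 to 7, beside 8.84% of all features.

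Requiring a call against each control hairpin left 11 genes lower (29.7%): SYP, RPH3A, RAB3C, CPLX2, SYN2, BSN, SV2C, SYT7, SYNGR3, STX1A and SV2A. The same pattern held for 14.0% of all features tested, and 10.6% of all features were higher than both controls. In 15 of the 37 genes (40.5%) both knockdown libraries lay below all 4 control libraries, as in 22.8% of all features. In none did they lie above, as in 23.3% of all features. The knockdown had the lowest mean of the 3 groups in 22 genes (59.5%, beside 33.3% of all features) and the highest in 2, DNM1 and SYN3 (5.41%, beside 36.8%). Control hairpin 1 had the highest mean in 26 genes (70.3%, beside 29.5%). Calls of STX1A, SV2A and SYNGR3 against control hairpin 2 did not hold without the knockdown's replicate 2. Their log2 fold changes were then -0.45, -0.36 and -0.43. A test against a 1.5-fold change left 6 genes lower than both controls (CPLX2, RAB3C, RPH3A, SV2C, SYN2 and SYP). In that test 8.05% of all features were lower than control hairpin 1 and 10.9% lower than control hairpin 2. The share of all features lower than both was not computed for it.

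**Figure D1:**
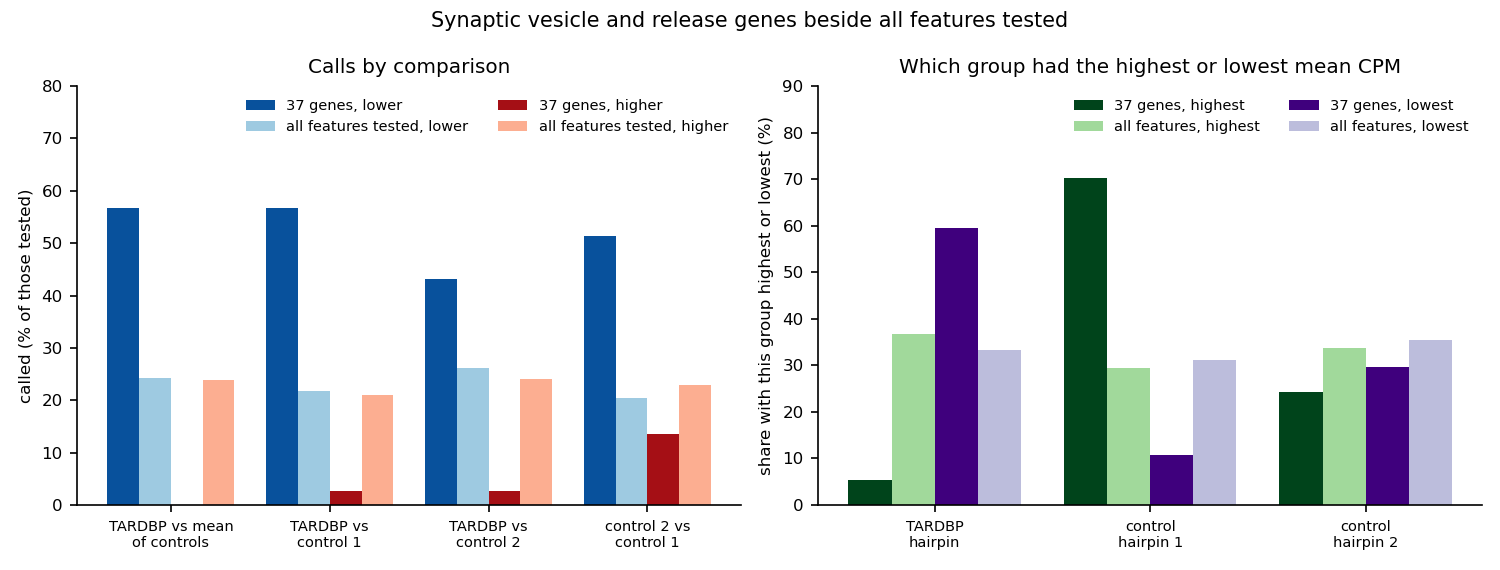
Left, the share of the 37 tested genes and of all features tested that was called lower or higher (%), in each of 4 comparisons. Right, the share for which each hairpin group had the highest or the lowest mean CPM. The 37 genes were lower than the mean of both controls in 56.8% of cases and never higher, and control hairpin 1 had the highest mean for 70.3% of them.

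A set of upstream windows is shown for genes from some of the patterns of response. SYP and BSN were lower than both controls, SYN1 was lower than control hairpin 1 only, and PCLO moved in opposite directions against the 2 controls. No window is shown for a gene lower than control hairpin 2 alone or with no call against either control. Every window shown holds a motif match, while most of the release genes with a window held none, so the set is not typical of them. Each line holds the 250 bases before the RefSeq gene start (GRCh38.p14, while the counts were made on hg19), 5′ to 3′ on the gene's strand. Capitals mark exact matches to motifs searched on both strands: the left arm of the RE1 element bound by the repressor REST (TTCAGCACC), its right arm (GGACAGCG), the cyclic AMP response element (TGACGTCA) and an NRF1 motif (GCGCA and GCGC with any base between them).
SYP, chrX:49200194-49200443, minus strand: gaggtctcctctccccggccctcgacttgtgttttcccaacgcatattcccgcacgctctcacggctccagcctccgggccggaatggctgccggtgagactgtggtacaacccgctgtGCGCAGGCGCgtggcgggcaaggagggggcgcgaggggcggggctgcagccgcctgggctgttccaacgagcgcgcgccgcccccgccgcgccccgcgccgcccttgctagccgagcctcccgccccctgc
BSN, chr3:49554227-49554476, plus strand: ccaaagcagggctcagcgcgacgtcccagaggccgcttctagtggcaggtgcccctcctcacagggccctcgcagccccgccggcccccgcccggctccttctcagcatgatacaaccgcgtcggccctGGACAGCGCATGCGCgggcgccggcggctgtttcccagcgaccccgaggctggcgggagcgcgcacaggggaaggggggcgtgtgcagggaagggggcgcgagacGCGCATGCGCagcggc
SYN1, chrX:47619858-47620107, minus strand: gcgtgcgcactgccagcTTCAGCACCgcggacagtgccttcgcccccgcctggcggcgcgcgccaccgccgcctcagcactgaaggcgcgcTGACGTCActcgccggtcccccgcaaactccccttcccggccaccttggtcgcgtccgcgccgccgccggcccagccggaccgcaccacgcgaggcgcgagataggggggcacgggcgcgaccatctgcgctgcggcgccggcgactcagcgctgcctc
PCLO, chr7:83162885-83163134, minus strand: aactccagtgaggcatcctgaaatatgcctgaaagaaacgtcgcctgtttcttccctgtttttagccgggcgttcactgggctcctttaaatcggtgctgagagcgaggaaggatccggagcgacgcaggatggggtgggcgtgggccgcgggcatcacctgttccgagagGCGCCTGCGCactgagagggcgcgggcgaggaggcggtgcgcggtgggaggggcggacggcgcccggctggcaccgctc
The SYP and PCLO windows hold an NRF1 match. The BSN window holds an RE1 right arm whose last bases overlap an NRF1 match, and another NRF1 match near the start. The SYN1 window holds an RE1 left arm and a cyclic AMP response element. Shortly after that left arm stand the letters ggacagtg. They differ from the searched right arm in 1 base, so the exact search neither marked nor counted them. Windows were found for 34 of the 41 genes. The NRF1 motif was in 7 of the 34 (BSN, DNAJC5, DNM1, NAPB, PCLO, SYNGR1 and SYP), beside 6.20% of 27305 genes with a window. The RE1 right arm was in 2 (BSN and RPH3A, beside 1.55%), the RE1 left arm in 1 (SYN1, beside 0.355%) and the cyclic AMP response element in 1 (SYN1, beside 2.03%). A match describes letters in this window and is no evidence of binding.

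Among the vesicle membrane proteins, all 5 tested genes were lower than control hairpin 1 and 4 of 5 were lower than control hairpin 2. Of all features tested, 21.8% and 26.2% were lower in these comparisons. SYP, which encodes synaptophysin, the classic vesicle marker, stood at 6.93 and 6.18 CPM in the knockdown, 38.7 and 37.6 under control hairpin 1, and 22.4 and 19.9 under control hairpin 2. The 3 groups did not overlap, and the knockdown was lowest. Its log2 fold change was -2.54 against control hairpin 1 (SE 0.129, adjusted p = 7.48e-06) and -1.69 against control hairpin 2 (SE 0.130, adjusted p = 3.51e-05), and the controls themselves differed by -0.85 (adjusted p = 8.1e-04).

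SV2C, a vesicle glycoprotein of the SV2 family, ran the other way between the controls. It stood at 67.0 and 61.3 CPM in the knockdown, 121 and 135 under control hairpin 1, and 197 and 179 under control hairpin 2. The knockdown was again lowest, by -1.0 (SE 0.101, adjusted p = 1.41e-04) and -1.55 (SE 0.102, adjusted p = 1.76e-05) on the log2 scale. SV2A, the family member that binds levetiracetam, stood at 50.5 and 48.1 CPM, 83.8 and 73.3 CPM, and 66.2 and 63.4 CPM in the same group order. Its groups also did not overlap, with log2 fold changes of -0.67 (SE 0.0991, adjusted p = 9.33e-04) and -0.39 (SE 0.0992, adjusted p = 0.011). The call against control hairpin 2 was lost without the knockdown's replicate 2 (adjusted p = 0.0678) and without replicate 1 of control hairpin 2 (adjusted p = 0.0595).

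The synaptogyrins, small relatives of synaptophysin, split by control. SYNGR3 stood at 11.3 and 9.66 CPM in the knockdown, 27.2 and 30.0 under control hairpin 1, and 14.1 and 16.4 under control hairpin 2. All 4 control libraries were above the knockdown, with log2 fold changes of -1.45 (SE 0.141, adjusted p = 1.16e-04) and -0.54 (SE 0.143, adjusted p = 0.0137). The second of these calls was lost without the knockdown's replicate 2 (adjusted p = 0.0835) and without replicate 2 of control hairpin 2 (adjusted p = 0.0782). SYNGR1 stood at 5.48 and 5.51 CPM, 11.7 and 8.23 CPM, and 5.58 and 5.79 CPM. It was lower than control hairpin 1 (log2 fold change -0.86, SE 0.196, adjusted p = 0.00808; adjusted p = 0.055 without replicate 1 of that control), while against control hairpin 2 the value was -0.05 (95% interval -0.52 to 0.42). SV2B was not tested, with 1 to 5 counts a library, and SLC17A6, a vesicular glutamate transporter, had a single count in all.

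The synapsins tether vesicles to actin and to each other. SYN2 stood at 7.40 and 5.76 CPM in the knockdown, 26.1 and 24.8 under control hairpin 1, and 14.7 and 13.7 under control hairpin 2. The groups were well apart, with log2 fold changes of -1.95 (SE 0.150, adjusted p = 3.86e-05) and -1.11 (SE 0.153, adjusted p = 6.13e-04). SYN1, whose window is printed above, stood at 9.57 and 6.34 CPM, 15.3 and 16.1 CPM, and 6.79 and 7.58 CPM. Knockdown libraries lay on both sides of control hairpin 2 and below control hairpin 1, with a log2 fold change of -0.98 (SE 0.194, adjusted p = 0.0041) against the latter and 0.14 (95% interval -0.32 to 0.61) against the former. The difference between the controls was -1.13 (SE 0.195, adjusted p = 0.00247). SYN3 was near the limit of detection, at 5 to 17 counts a library.

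**Figure D2:**
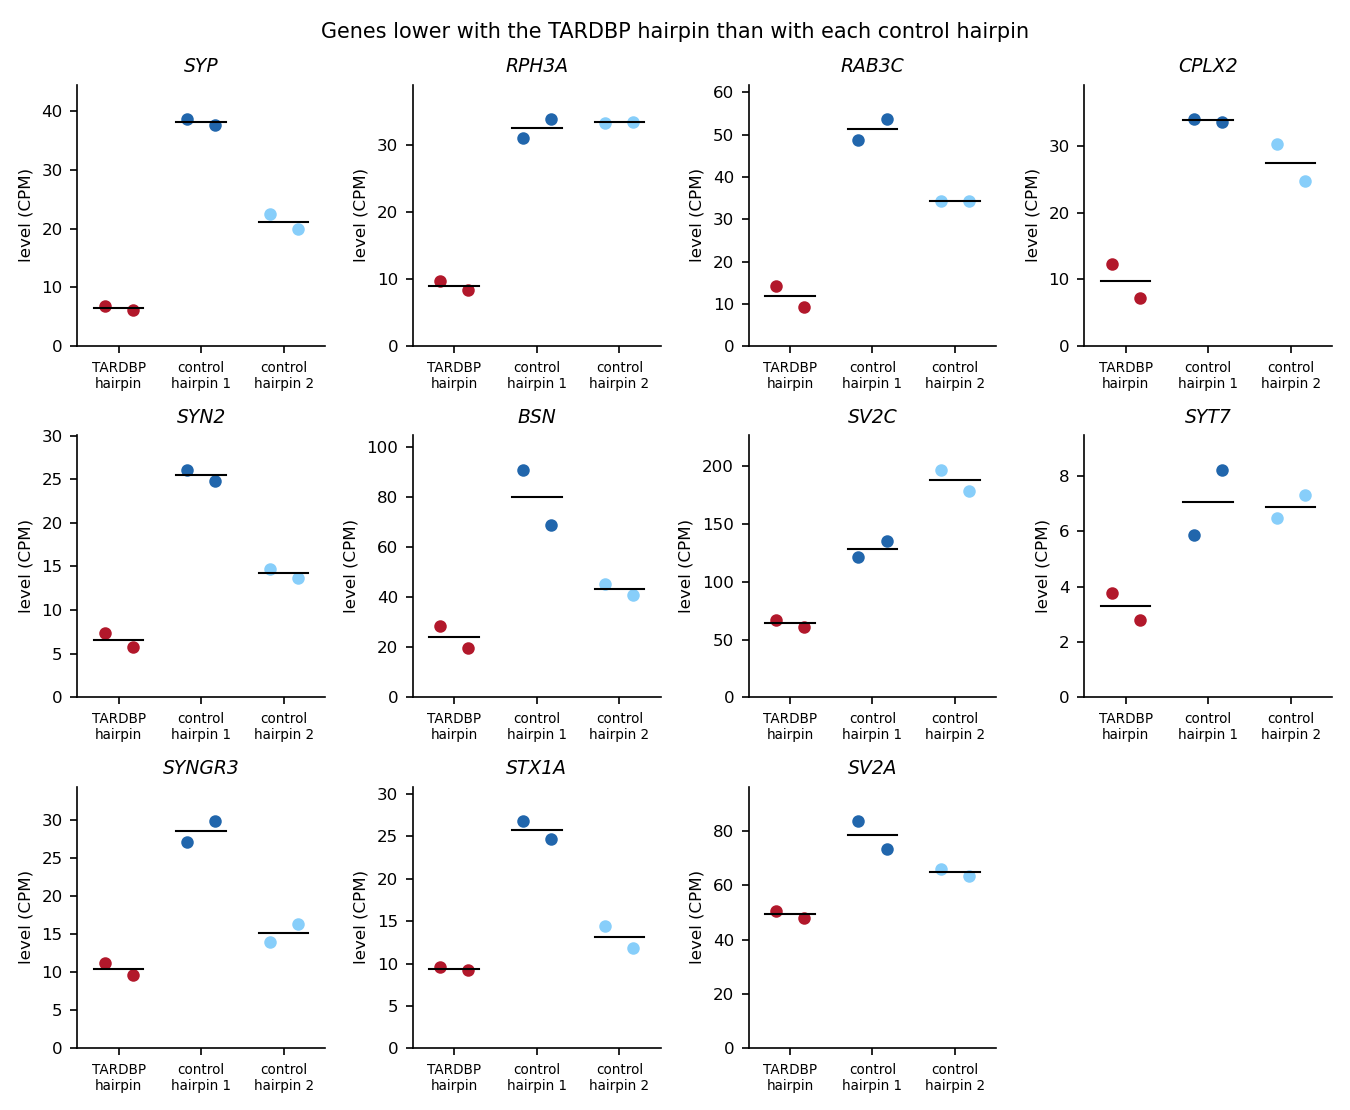
Levels (CPM, axis from 0) of the 11 genes called lower against each control hairpin; points are libraries, and lines are means of 2 libraries. Both knockdown libraries lie below all 4 control libraries in every panel, with knockdown levels from 2.80 CPM in SYT7 up to 67.0 CPM in SV2C. The genes were chosen by these calls, so the separation was largely set by the choice.

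Of the 5 synaptotagmins, a family that includes the calcium sensors of release, only SYT7 was lower than both controls, a pattern of 14.0% of all features. SYT7, a slow, high-affinity sensor, stood at 3.78 and 2.80 CPM in the knockdown, 5.86 and 8.23 under control hairpin 1, and 6.48 and 7.30 under control hairpin 2. The control groups overlapped each other and lay above the knockdown, with log2 fold changes of -1.10 (SE 0.233, adjusted p = 0.00571) and -1.07 (SE 0.233, adjusted p = 0.00581). SYT5 showed the widest gap between controls of any of the 37 genes, at 4.76 and 3.74 CPM in the knockdown, 24.5 and 23.5 under control hairpin 1, and 5.74 and 5.79 under control hairpin 2. Both controls were above the knockdown, control hairpin 1 by far: its log2 fold change was -2.50 (SE 0.156, adjusted p = 1.7e-05), while that against control hairpin 2 was -0.44 and did not pass (95% interval -0.82 to -0.06, adjusted p = 0.0567). The control hairpins differed by -2.06 (SE 0.150, adjusted p = 5.23e-05).

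SYT4 and SYT11, 2 synaptotagmins that lack a full set of calcium-binding residues, were lower than control hairpin 2 alone. SYT4 stood at 259 and 325 CPM, 248 and 309 CPM, and 370 and 401 CPM with the TARDBP hairpin and control hairpins 1 and 2. SYT11 stood at 223 and 217, 212 and 232, and 282 and 247 CPM. The knockdown overlapped control hairpin 1 in both genes and lay below control hairpin 2, by -0.40 for SYT4 (SE 0.140, adjusted p = 0.0411) and -0.27 for SYT11 (SE 0.0978, adjusted p = 0.0481). The SYT4 call was lost in 5 of 13 alternative settings, among them leaving out the knockdown's replicate 1 (adjusted p = 0.226) or either library of control hairpin 2 (0.0705 and 0.125). The SYT11 call was lost in 11 of 13, among them leaving out any 1 of 5 libraries (adjusted p from 0.0508 to 0.251). Against control hairpin 1 the values were 0.07 for SYT4 (95% interval -0.25 to 0.39) and -0.02 for SYT11 (-0.24 to 0.21). SYT1, the main fast sensor, was called against neither control, at 55.3 to 99.4 CPM over the 6 libraries.

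Of the 4 SNARE genes, 1 was lower than control hairpin 1 (25%, near the 21.8% of all features). Against control hairpin 2, 2 were lower (50%, beside 26.2%). STX1A, which encodes the plasma membrane syntaxin, stood at 9.62 and 9.19 CPM in the knockdown, 26.9 and 24.7 under control hairpin 1, and 14.5 and 11.8 under control hairpin 2. The 3 groups did not overlap, with log2 fold changes of -1.45 (SE 0.141, adjusted p = 1.15e-04) and -0.48 (SE 0.144, adjusted p = 0.0232). The call against control hairpin 2 was lost without either knockdown library (adjusted p = 0.0574 and 0.0954) and without replicate 1 of control hairpin 2 (adjusted p = 0.141). SNAP25, its membrane-attached partner, stood at 33.7 and 31.5 CPM, 32.4 and 38.3 CPM, and 41.7 and 41.9 CPM. It overlapped control hairpin 1 (-0.12, 95% interval -0.38 to 0.14) and lay below control hairpin 2 (-0.36, SE 0.112, adjusted p = 0.0269). That call was lost without either knockdown library (adjusted p = 0.0542 and 0.127) and without either library of control hairpin 2 (0.0838 and 0.0747). VAMP2, the vesicle SNARE, at 13.9 to 23.6 CPM, and VAMP1, at 4.14 to 7.32 CPM, were called against neither control.

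Of the SNARE disassembly and folding factors, NAPB, a cofactor of NSF, stood at 18.5 and 15.4 CPM in the knockdown, 41.0 and 30.5 under control hairpin 1, and 17.6 and 15.8 under control hairpin 2. DNAJC5, the vesicle chaperone also called cysteine string protein, stood at 49.2 and 52.5, 74.1 and 71.9, and 54.0 and 54.6 CPM. For both genes the knockdown was close to control hairpin 2 and below control hairpin 1. NAPB was lower than control hairpin 1 by -1.08 (SE 0.167, adjusted p = 0.0012), and its value against control hairpin 2 was 0.02 (95% interval -0.37 to 0.41). DNAJC5 was lower than control hairpin 1 by -0.52 (SE 0.0882, adjusted p = 0.0019), with -0.09 (95% interval -0.30 to 0.11) against control hairpin 2. NSF itself stood at 57.7 to 72.9 CPM and was called against neither.

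Complexins bind the assembled SNARE complex. CPLX2 stood at 12.4 and 7.22 CPM in the knockdown, 34.1 and 33.5 under control hairpin 1, and 30.2 and 24.7 under control hairpin 2. The knockdown was lower by -1.79 (SE 0.221, adjusted p = 3.84e-04) and -1.49 (SE 0.221, adjusted p = 9.04e-04), and the control hairpins were not called different from each other (adjusted p = 0.267). CPLX1 stood at 8.28 and 3.90 CPM, 5.91 and 7.93 CPM, and 14.7 and 17.6 CPM. Its knockdown libraries lay on both sides of control hairpin 1 (-0.19, 95% interval -0.91 to 0.54) and below control hairpin 2 (-1.41, SE 0.302, adjusted p = 0.0053). Without knockdown replicate 1 the CPLX1 values were -2.06 against control hairpin 2 and -0.83 against control hairpin 1. Without knockdown replicate 2 the value was 0.25 against control hairpin 1 and -0.36 against the mean of both controls. Over the 13 alternative settings the value against control hairpin 2 ran from -2.06 to -0.97.

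Of the vesicle RAB3 GTPases and their effector, RAB3C and RPH3A were lower than both controls. RAB3C stood at 14.3 and 9.30 CPM in the knockdown, 48.8 and 53.8 under control hairpin 1, and 34.4 and 34.3 under control hairpin 2. The knockdown was lowest by a wide margin, with log2 fold changes of -2.12 (SE 0.180, adjusted p = 6.19e-05) and -1.54 (SE 0.180, adjusted p = 2.69e-04). RPH3A, which encodes rabphilin, a RAB3 effector, stood at 9.73 and 8.36 CPM, 31.0 and 34.0 CPM, and 33.3 and 33.5 CPM. Here the control groups overlapped (adjusted p = 0.804 between them), and the knockdown was lower by -1.85 (SE 0.124, adjusted p = 2.13e-05) and -1.88 (SE 0.124, adjusted p = 1.77e-05). RAB3D, at 35.7 and 33.1, 54.6 and 62.1, and 31.0 and 33.9 CPM, was lower than control hairpin 1 only (-0.76, SE 0.109, adjusted p = 8.04e-04), with 0.08 (95% interval -0.17 to 0.34) against control hairpin 2, which it overlapped. RAB3A, the main neuronal form, stood at 6.96 to 11.3 CPM and RAB3B at 29.3 to 50.1 CPM, with neither called against a control.

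The active zone scaffolds include the giant proteins bassoon and piccolo, and they parted. BSN stood at 28.6 and 19.6 CPM in the knockdown, 91.0 and 68.8 under control hairpin 1, and 45.4 and 40.9 under control hairpin 2. It was lowest in the knockdown, with log2 fold changes of -1.73 (SE 0.192, adjusted p = 2.24e-04) and -0.84 (SE 0.192, adjusted p = 0.00719). PCLO stood at 78.4 and 70.4 CPM, 182 and 138 CPM, and 57.6 and 53.1 CPM. The knockdown lay between the controls with no overlap, lower than control hairpin 1 (-1.11, SE 0.137, adjusted p = 3.84e-04) and higher than control hairpin 2 (0.43, SE 0.138, adjusted p = 0.0311), a pattern of 0.903% of all features tested. The reverse pattern, in 2.06% of all features, was seen in none of the 37 genes. The higher call was lost without either knockdown library (adjusted p = 0.140 and 0.0524) and without either library of control hairpin 2 (adjusted p = 0.0714 and 0.198). The PCLO controls differed by -1.53 (SE 0.139, adjusted p = 1.25e-04).

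The RIM proteins tether vesicles and calcium channels, and ELKS proteins, here ERC2, bind them. RIMS3 stood at 43.3 and 38.3 CPM in the knockdown, 110 and 91.2 under control hairpin 1, and 40.6 and 35.2 under control hairpin 2. The knockdown overlapped control hairpin 2 (0.11, 95% interval -0.19 to 0.40) and lay below control hairpin 1 (-1.30, SE 0.127, adjusted p = 1.19e-04), and the controls differed by -1.41 (SE 0.127, adjusted p = 1.25e-04). ERC2 stood at 15.5 and 13.1, 22.2 and 24.1, and 14.5 and 13.9 CPM, and was likewise lower than control hairpin 1 only (-0.69, SE 0.130, adjusted p = 0.00319; 0.01 against control hairpin 2, 95% interval -0.29 to 0.32). RIMS1, at 6.13 to 11.4 CPM, and RIMS2, at 22.3 to 37.1 CPM, were called against neither control.

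CADPS primes dense-core granules for release, and it stood apart from the scaffolds. Its level was 14.5 and 12.0 CPM in the knockdown, 18.3 and 14.4 under control hairpin 1, and 54.9 and 48.4 under control hairpin 2. The knockdown libraries overlapped control hairpin 1 (-0.30, 95% interval -0.66 to 0.06) and lay far under control hairpin 2 (-1.96, SE 0.154, adjusted p = 3.9e-05). Between the controls it was higher in control hairpin 2 by 1.66 (SE 0.151, adjusted p = 1.26e-04). CADPS2 was not tested, at 0 to 10 counts a library.

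Of the 3 tested endocytosis genes, 1 was lower and 1 higher than control hairpin 1, where 21.8% of all features were lower and 21.1% higher. SNAP91, which encodes the clathrin adaptor AP180, stood at 17.4 and 15.8 CPM in the knockdown, 27.4 and 28.4 under control hairpin 1, and 21.0 and 18.5 under control hairpin 2. All control libraries were above the knockdown, but only the gap to control hairpin 1 passed (-0.75, SE 0.120, adjusted p = 0.00143), with -0.25 (95% interval -0.53 to 0.03) against control hairpin 2. DNM1, the neuronal dynamin, stood at 49.6 and 58.5, 45.5 and 41.0, and 54.6 and 52.6 CPM. It was the only gene called higher than control hairpin 1 (0.32, SE 0.111, adjusted p = 0.046), a call lost in 11 of 13 alternative settings, among them leaving out the knockdown's replicate 2 (adjusted p = 0.275), replicate 1 or 2 of control hairpin 1 (0.0739 and 0.228) or replicate 1 or 2 of control hairpin 2 (0.0752 and 0.0881). Being higher than control hairpin 1 with no call against control hairpin 2 was a pattern of 8.43% of all features tested. SYNJ1, a phosphatase that strips clathrin coats, stood at 21.0 to 44.1 CPM and was called against neither control, and AMPH had 1 count in all libraries together.

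**Figure D3:**
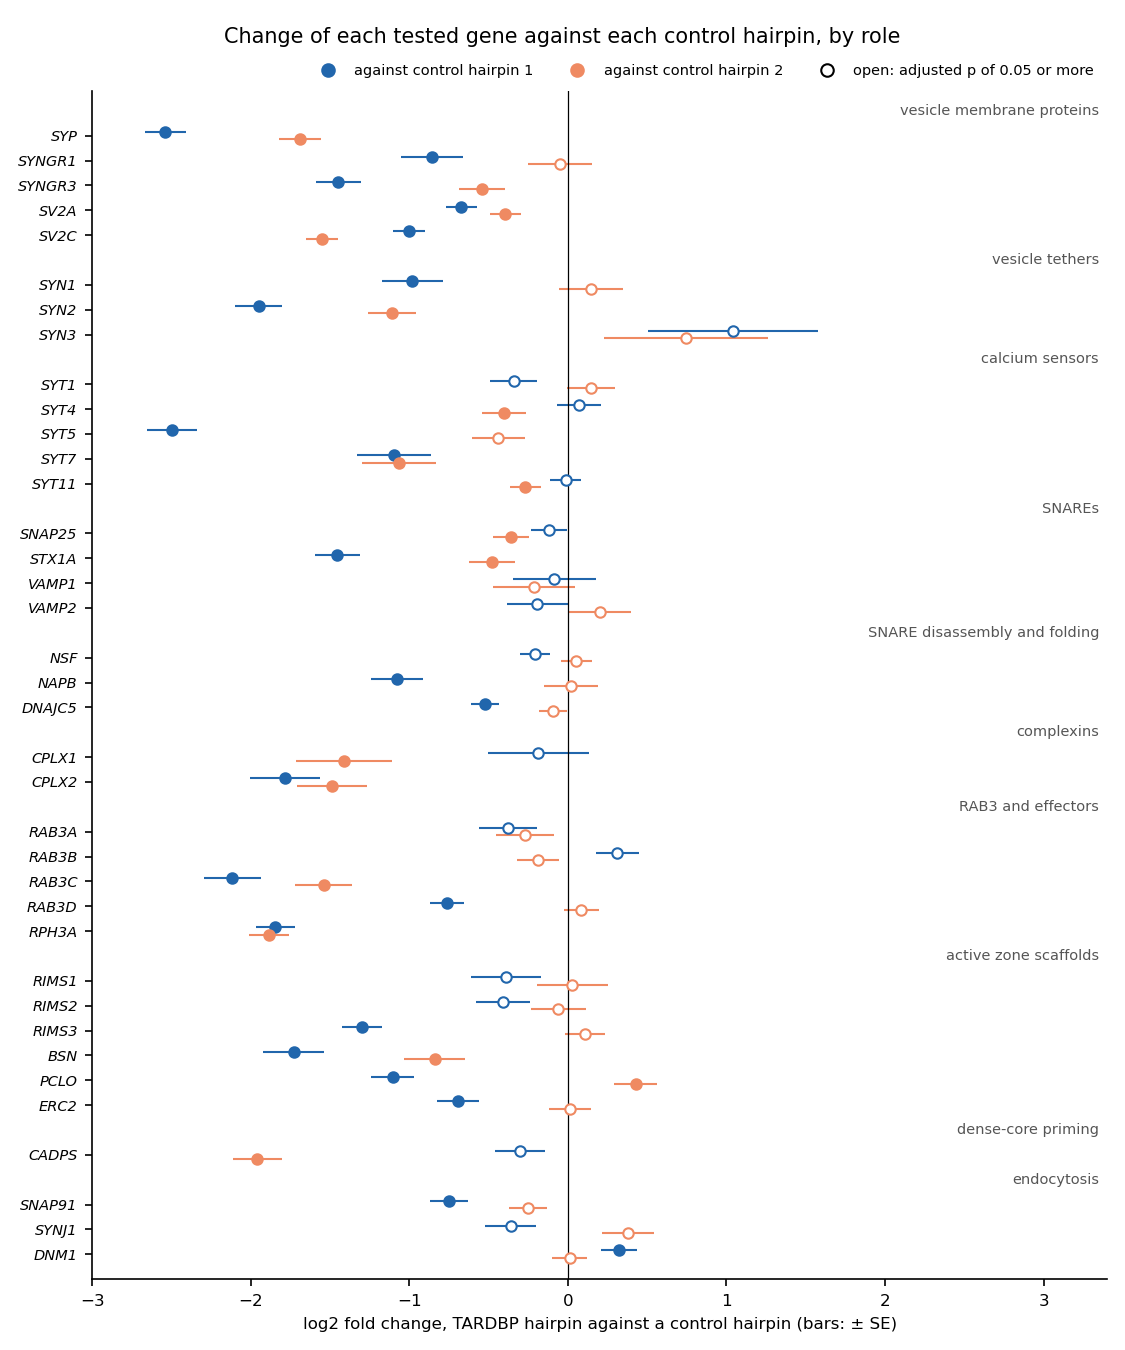
Log2 fold change (bars ± SE) of each of the 37 tested genes with the TARDBP hairpin against control hairpin 1 (blue) and control hairpin 2 (orange), grouped by role; filled points have an adjusted p below 0.05. Points against control hairpin 1 lie mostly further left, down to -2.54 for SYP, and the 2 points of PCLO fall on opposite sides of 0.

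The control hairpins were called different from each other in 24 of the 37 genes, beside 43.2% of all features. The difference was largest for SYT5, CADPS, PCLO, RIMS3, CPLX1, SYN1, NAPB and STX1A, in that order. Of these 8, only CADPS and CPLX1 (1.22, SE 0.298, adjusted p = 0.0113, and 0.0818 and 0.068 without replicate 1 of control hairpin 1 and replicate 2 of control hairpin 2) were higher in control hairpin 2, as were SV2C (0.55), RAB3B (0.50) and SYT4 (0.47) among the smaller differences. The RAB3B call was lost without replicate 2 of control hairpin 1 (adjusted p = 0.0964) or replicate 1 of control hairpin 2 (0.0948). The SYT4 call was lost without replicate 1 of control hairpin 1 (adjusted p = 0.167) or replicate 1 or 2 of control hairpin 2 (0.0538 and 0.111). Of the 9 genes lower than control hairpin 1 alone, all were lower in control hairpin 2 than in control hairpin 1 as well, although the call for SYNGR1 was lost without replicate 1 of control hairpin 1 or either library of control hairpin 2 (adjusted p from 0.0559 to 0.0818) and that for SNAP91 without replicate 2 of control hairpin 2 (0.0891). That contrast equals the difference between the 2 knockdown comparisons by which the 9 genes were chosen. Its direction was therefore largely set by the choice, and it gives no separate support. The 9 make up 24.3% of the tested genes, beside 6.96% of all features. The 5 genes lower than control hairpin 2 alone (CADPS, CPLX1, SNAP25, SYT11 and SYT4) make up 13.5%, beside 10.2%, and 10 genes had no call against either control (27.0%, beside 34.4%).

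The wider release machinery was taken from a list of 105 other genes for vesicle transport, fusion, filling and recycling, of which 89 were tested. Against the mean of both controls 38 were lower (42.7%) and 13 higher (14.6%), with a median log2 fold change of -0.23. Of all features, 24.3% were lower and 23.9% higher. SLC18A1, a vesicular monoamine transporter, stood at 4.60 and 4.31 CPM in the knockdown, 74.0 and 76.7 under control hairpin 1, and 23.8 and 28.0 under control hairpin 2. It was the largest of the named losses at -3.31 (SE 0.125), ahead of the clathrin adaptor subunit AP2B1 (-1.58, SE 0.0939), the vesicle protein SCAMP5 (-1.56, SE 0.0984) and the clathrin light chain CLTA (-1.12, SE 0.0978). On the other side DNM3, a dynamin, stood at 29.4 and 30.8 CPM, 5.40 and 4.85 CPM, and 10.4 and 8.20 CPM. Its knockdown libraries were above all controls, a gain of 2.12 (SE 0.123), and SYT14 (1.21, SE 0.108), the SNARE VAMP4 (1.01, SE 0.104) and the phosphatase SYNJ2 (0.67, SE 0.0809) were also higher. The SYNJ2 call was lost with the controls fitted as 1 group (adjusted p = 0.217) and in the test against a 1.5-fold change (0.251).

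REST, the repressor that silences many neuronal genes outside neurons, was higher in the knockdown. It stood at 115 and 126 CPM in the knockdown, 66.1 and 60.0 under control hairpin 1, and 96.0 and 74.6 under control hairpin 2. Every knockdown library was above every control library, and the log2 fold change was 0.72 against the mean of both controls (SE 0.108, adjusted p = 9.72e-04). Control hairpin 2 also had more REST than control hairpin 1 (0.43, adjusted p = 0.0258). With the 4 controls fitted as 1 group the REST call was lost (adjusted p = 0.0576). Of REST and 9 of its partners, 6 were lower and 2 higher in control hairpin 2 than in control hairpin 1. These shares were 60% and 20%, beside 20.4% and 22.8% of all features. Against control hairpin 1 alone, 3 were lower and 1 higher (30% and 10%, beside 21.8% and 21.1%). Against control hairpin 2 alone, 3 were lower and 4 higher (30% and 40%, beside 26.2% and 24.0%). Against the mean of both controls, 3 were lower and 2 higher, shares of 30% and 20% that lie near the 24.3% and 23.9% of all features. The lower genes were the scaffold RCOR1 (-0.78, SE 0.100, adjusted p = 4.07e-04), the demethylase KDM1A (-0.34, adjusted p = 0.016, and 0.0572 and 0.0979 without knockdown replicate 1 or 2, and 0.367 with the controls as 1 group) and the deacetylase HDAC2 (-0.20, adjusted p = 0.0421, a call lost in 11 of 13 alternative settings). The scaffold SIN3A was higher (0.33, adjusted p = 0.00714, and 0.0621 without knockdown replicate 1 and 0.254 with the controls as 1 group). Whether REST bears on the release genes was not tested.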

How the data were processed

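RNA-seq of SH-SY5Y cells was analysed from the gene-level table of raw counts deposited by the authors, with no normalization per the file headers. The submitters' processing notes name bcl2fastq, STAR 2.5.2b and hg19. The counting tool, its annotation, strand setting and treatment of multi-mapping reads are each not given in the sources used here, so reads from overlapping or near-identical genes may be split in an unknown way. The 6 libraries were grouped by hairpin, 2 each, from the labels. The members and all gene lists were chosen with earlier results of these data known.

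Features (28953, of which 992 were repeat families) were filtered with edgeR 4.0.16 (R 4.3.3; minimum count 10, minimum total 15), which left 17163, and scaled by TMM. A single 3-group quasi-likelihood model was fitted to all 6 libraries (3 residual degrees of freedom), with Benjamini-Hochberg adjustment over all features tested and calls at 0.05. SV2B, SLC17A6, CADPS2 and AMPH did not pass the filter. Standard errors were derived by dividing the absolute log2 fold change by the root of F, and intervals are at 95%. The biological coefficient of variation was 10.5%. CPM are not corrected for gene length and are compared between groups, not between genes, and 3 counts correspond to 0.141 to 0.158 CPM; intervals and this floor cover no error in culture or preparation. Libraries of a group differed by more than counting noise, which does not show separate cultures; each was counted as 1 replicate, as labelled.

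Genes with values in all 6 libraries were those called the same way against each control, those called in opposite ways, and the 8 with the largest called difference between controls. Values of other members were added for completeness. Up to 4 genes in each direction were named from the other lists, by p. Upstream windows came from the RefSeq promoter table. Alternatives were RLE factors, gene rows alone, no filter, DESeq2 1.42.0, a test against 1.5-fold, only the compared groups, a replicate block and leaving out each library. On simulated data of the same size for the knockdown comparison (16887 features), 62 of 100 1.5-fold and 93 of 100 2-fold changes were recovered, with 11 of 166 calls false. In the simulation the control hairpins did not differ, and few features were changed, none of them at low counts. These rates therefore do not carry over to the real comparison or to low-count genes.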

Additional observations from a re-analysis of the deposited data

How the results depend on the processing

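With 2 libraries a group, 1 hairpin to TARDBP and control hairpins that differ in many genes, the counts move with the control used. The count lower than both controls was 11, beside 14.0% of all features. It moved in the fits that left out 1 library, as did the shares of all features lower than each control. In each of these fits the shares of all features called lower or higher were below those of the fit to all 6 libraries. This held in every comparison, that between the controls included. The counts of release genes given below for these fits therefore moved along with the overall rate of calls. They are no result about the release genes alone.

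Tested against a 1.5-fold change, the counts of lower genes were 12 against the mean of both controls, 13 against control hairpin 1, 8 against control hairpin 2 and 8 between the controls, and those of higher genes were 0, 0 and 1 against control hairpin 1, against control hairpin 2 and between the controls. Of all features, 8.36%, 8.05%, 10.9% and 3.65% were lower and 7.23%, 6.46% and 8.65% higher, in the same orders. With only the compared groups in the fit, 7 were lower than the mean of both controls, 0 were higher than control hairpin 1 and 2 were higher than control hairpin 2. The shares of all features were 8.84%, 19.3% and 23.4% in the same order. The 1 gene higher than control hairpin 1 became 0 with RLE factors, with no filter, with DESeq2 and with the replicate block. In these fits 20.4%, 13.6%, 16.9% and 19.1% of all features were higher than control hairpin 1. Replicate numbers were not shown to pair the samples, since the deviations of replicates correlated at -0.33, -0.35 and 0.40 across the pairs of groups. The block left 19 lower than the mean of both controls, beside 22.7% of all features. It left 11 lower than both, for which no share of all features was computed.

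Leaving out each library in turn gave 0 to 1 genes higher than the mean of both controls, 0 to 1 higher than control hairpin 1, 0 to 2 higher than control hairpin 2 and 3 to 6 higher between the controls, where the low value of 3 came without replicate 1 of control hairpin 1 or either library of control hairpin 2. The counts of lower genes ranged from 16 to 21 against the mean, 20 to 23 against control hairpin 1, 11 to 16 against control hairpin 2 and 13 to 19 between the controls.

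Values that did not pass a test changed sign in some fits: against control hairpin 2, ERC2 went to -0.00211 with RLE factors and -0.00214 with DESeq2, and leaving out each library gave -0.12 to 0.13 for ERC2, -0.19 to 0.41 for SYN1, -0.12 to 0.15 for NAPB and -0.031 to 0.21 for RIMS3. Against control hairpin 1 the ranges were -0.11 to 0.23 for SYT4, -0.082 to 0.039 for SYT11 and -0.83 to 0.25 for CPLX1. The cause was not tested.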
